A study of Homo sapiens with 4 samples.

Results

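The 849 loops described here were listed in both vehicle libraries, DMSO and H2O, and in neither drug library, APH or HU. They were chosen by the deposited loop lists alone: the same pair of 5 kb bins on chromosomes 1 to 22 or X had to be present in both vehicle lists and absent from both drug lists. They are 849 of 41846 loops listed in any library, 4.81% of the DMSO list and 3.78% of the H2O list, and are called vehicle-only loops below. An unlisted pair is not a measured 0, since the lists hold called loops only and the counts of uncalled pairs are not analysed here. A loop is therefore absent from a list, which does not show that the contact was absent from the cells.

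The libraries are labelled as GM12878, an established B lymphoblastoid line made by Epstein-Barr virus transformation, and were prepared by HiChIP, which couples proximity ligation of fixed chromatin to immunoprecipitation, here with an antibody to SMC1. The APH group received 0.4 µM aphidicolin, an inhibitor of replicative DNA polymerases, for 18 h, and the DMSO group its solvent, dimethyl sulfoxide. The HU group received 0.2 mM hydroxyurea, which lowers the supply of deoxynucleotides, for 18 h, and the H2O group water. Each group has 1 library, so that no value below has a replicate check, every interval covers counting error only, and drug and library cannot be told apart. In the titles of the samples a different lymphoblastoid line is named, and the remaining labels give GM12878.

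SMC1 is a core subunit of cohesin, the ring complex that extrudes loops of chromatin. Extrusion halts where CTCF is bound in the facing orientation, which gives loops with stable anchors, and loops also join promoters to enhancers. Cohesin holds sister chromatids together after replication as well, and replication forks have to pass through chromatin that carries it.

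The vehicle lists held 17660 loops (DMSO) and 22446 loops (H2O), and the drug lists 27395 (APH) and 21448 (HU). Total read depth is unknown, and the summed counts of the lists ranged from 449565 in DMSO to 732695 in APH. Of 12 B cell marker genes, 9 to 11 had a listed loop in each library, against 3 to 5 of 10 T cell markers and 2 to 4 of 10 myeloid and erythroid markers. No loop was listed at CD79B, LCK, CD8A, LYZ, GATA1 or HBB in any library, and a loop at a gene does not show that the gene is expressed.

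Promoters that lie in the anchors of vehicle-only loops are shown for 4 genes, because these genes carry some of the largest groups or the longest of these loops. MYB and MLLT3 encode regulators of blood cell development, RAPGEF1 an activator of the small GTPase Rap1, and RND3 an atypical small GTPase. Each sequence is the 250 bases before the annotated start, from RefSeq on GRCh38.p14, the same build as hg38, written 5′ to 3′ on the strand of the gene. Capitals mark AGNNGGCGC, a short form of the CTCF core that was chosen after the sequences were seen.
MYB, chr6:135181058-135181307, plus strand: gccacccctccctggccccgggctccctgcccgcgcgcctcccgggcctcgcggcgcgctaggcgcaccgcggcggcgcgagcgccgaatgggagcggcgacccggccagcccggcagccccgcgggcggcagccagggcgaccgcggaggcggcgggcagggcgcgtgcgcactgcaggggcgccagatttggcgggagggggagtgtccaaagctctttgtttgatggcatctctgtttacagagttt
MLLT3, chr9:20622500-20622749, minus strand: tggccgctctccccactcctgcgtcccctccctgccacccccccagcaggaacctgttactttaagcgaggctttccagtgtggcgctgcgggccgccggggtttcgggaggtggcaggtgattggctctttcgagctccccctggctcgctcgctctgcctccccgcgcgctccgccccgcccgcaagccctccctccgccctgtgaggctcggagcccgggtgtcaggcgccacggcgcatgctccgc
RAPGEF1, chr9:131740077-131740326, minus strand: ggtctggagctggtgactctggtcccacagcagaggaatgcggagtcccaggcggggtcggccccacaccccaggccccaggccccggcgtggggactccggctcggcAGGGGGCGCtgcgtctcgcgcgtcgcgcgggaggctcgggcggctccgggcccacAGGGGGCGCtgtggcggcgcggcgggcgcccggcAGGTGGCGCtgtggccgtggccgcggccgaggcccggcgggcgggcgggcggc
RND3, chr2:150487696-150487945, minus strand: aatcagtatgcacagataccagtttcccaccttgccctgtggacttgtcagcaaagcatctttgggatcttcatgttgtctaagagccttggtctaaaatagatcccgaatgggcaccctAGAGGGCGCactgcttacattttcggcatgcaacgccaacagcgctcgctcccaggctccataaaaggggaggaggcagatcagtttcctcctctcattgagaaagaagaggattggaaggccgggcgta

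None of these windows held a longer CTCF core, CCANN followed directly by AGNNGGC, whose last bases the short form overlaps. Both forms were searched on both strands. The RAPGEF1 window held the short form 3 times, all on the strand shown, beginning 142, 87 and 53 bases before the start. Such a triple was found in 20 of 22132 promoter windows (0.0904%). In anchors of loops listed in all 4 libraries it was 6 of 1888 (0.318%), and in vehicle-only anchors 1 of 242 (0.413%). Nothing is read from its rarity, since the form was chosen after the sequences were seen. The bin of this window also anchored a loop listed in all 4 libraries. The RND3 window held the short form once, 130 bases before the start, and the MYB and MLLT3 windows held neither form. Over all windows inside anchors of vehicle-only loops, the longer core occurred in 6 of 242 (2.48%, 95% exact binomial interval 0.915 to 5.32). It occurred in 70 of 1888 windows in anchors of loops listed in all 4 libraries (3.71%, 2.90 to 4.66) and in 475 of 22132 windows of all promoters (2.15%). The short form occurred in 13.2% (9.22 to 18.2) of the 242 windows, 14.9% of the 1888 and 10.6% of all promoters, so neither form was more frequent at vehicle-only anchors beyond counting error. CTCF sites outside promoters were not searched, since no genome sequence was used here.

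Most loops of the 2 vehicles were listed again under both drugs. Of 12470 loops listed in both DMSO and H2O, 9529 (76.4%) were in both drug lists, 1473 (11.8%) in APH and not HU, 619 (4.96%) in HU and not APH, and 849 (6.81%, 6.37 to 7.26) in neither. In the mirror case, 2380 of 15182 loops listed in both drug libraries (15.7%) were in neither vehicle list, and these are called drug-only loops. These shares follow the lengths of the lists as well as the loops, and APH had the longest list. With each list cut to 17660 loops, 1187 loops were vehicle-only and 1336 drug-only, so the gap in number was smaller. The cut lists began at 12 counts in DMSO, 14 in H2O and HU, and 17 in APH. List length and lowest count thus changed together, and their parts cannot be told apart.

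Vehicle-only loops were mostly weak loops. Their contact counts ran from 12, the lowest count listed in any library, to 82 in DMSO, with a median of 16 and quartiles of 13 and 20. In H2O they ran from 12 to 102, with a median of 17 and quartiles of 14 and 22. Loops present in all 4 lists had medians of 25 and 27, while the other classes listed in just 2 libraries had medians of 15 to 18 in their own libraries, so low counts are not particular to vehicle-only loops. In all, 674 vehicle-only loops (79.4%) had under 24 counts in both vehicles, 173 stood at 12 counts in at least 1 vehicle and 33 at 12 in both. Just outside the rule, 75 loops of both vehicles and APH had 12 counts in APH, and 62 of both vehicles and HU had 12 counts in HU.

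**Figure D1:**
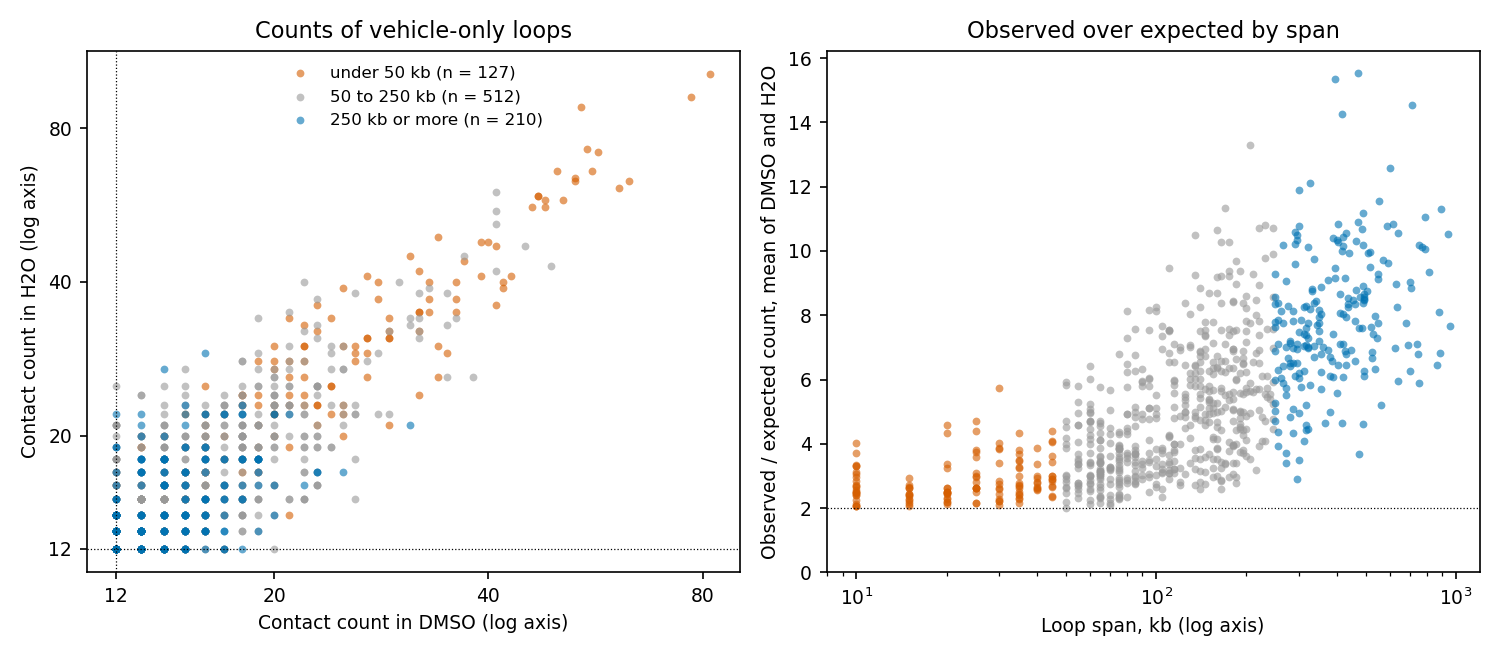
Left, contact counts of the 849 vehicle-only loops in DMSO and H2O on log axes, 1 point per loop, coloured by span, with dotted lines at the lowest listed count of 12. Right, observed over expected count (mean of both vehicles) against span on a log axis, with a dotted line at 2; the loops with most counts are under 50 kb and lie close to that line.

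The few strong members were short. Of the 27 with 40 counts or more in both vehicles, 21 spanned under 50 kb, and 23 had an observed count under 3 times the expected count in both vehicles. The listed minimum of this ratio is 2.0, and 77 vehicle-only loops in DMSO (9.07%) and 67 in H2O (7.89%) lay under 2.5, against 2.0% and 2.26% of loops listed in all 4 libraries. The nearest classes lay between or level: 5.09% and 5.7% for loops of both vehicles and APH, and 6.14% and 8.24% for loops of both vehicles and HU. A 15 kb loop at chr9:124200001-124205000 had the most counts, 82 in DMSO and 102 in H2O, and in DMSO it stood at 2.07 times the expected count. Strength in counts and strength over background thus named different members. KCNQ5, a potassium channel gene, anchored a 715 kb loop of 20 counts in DMSO and 22 in H2O. It stood at 13.8 and 15.3 times the expected count, and a drug list held a loop displaced by at most 1 bin at each anchor.

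Other members with high counts were of the same kind. Loops of 15 kb at chr3:98535001-98540000 and chr17:75295001-75300000 had 77 and 54 counts in DMSO and 92 and 88 in H2O, and a 35 kb loop at chr1:101370001-101375000 had 55 and 73. USP3, a histone deubiquitinase gene, anchored a 30 kb loop at its start with 63 counts in both vehicles. The shortest members, of 10 kb, included a loop inside C3orf52, with 1 anchor also on GCSAM, of 56 counts in DMSO and 66 in H2O. Others lay inside LDLRAD4 with 53 and 64, and inside AGPAT5 with 50 and 66. A drug list held a loop within 1 bin of those at USP3, C3orf52 and chr17:75295001-75300000, and within 2 bins of that inside LDLRAD4. None lay within 2 bins of the other loops named in this paragraph.

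Loop span, which the rule did not use, was longer in the median than for loops in all 4 libraries and for the other pairs of libraries. Vehicle-only loops spanned 10 to 955 kb, with a median of 135 kb and quartiles of 65 and 245 kb. The median was 115 kb for loops listed in all 4 libraries and 75 kb for drug-only loops. It was 130 kb both for loops of both vehicles and APH and for loops of both vehicles and HU, close to vehicle-only loops. Of vehicle-only loops, 210 (24.7%, 21.9 to 27.8) spanned 250 kb or more, against 15.6% (14.8 to 16.3) of loops in all 4 libraries and 8.07% (7.0 to 9.23) of drug-only loops. The other pairs of libraries gave 13.1% for DMSO with APH, 15.2% for H2O with HU, 13.2% for DMSO with HU and 13.5% for APH with H2O. Loops listed in both vehicles and HU alone reached 23.4% (20.1 to 27.0), and those in both vehicles and APH alone 19.8% (17.8 to 22.0). A large share of long loops was therefore not particular to vehicle-only loops.

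Counts fall with distance, so span was compared among loops of like count. Where the lower vehicle count was 12 to 15, the share of both-vehicle loops absent from both drug lists was 11.5% (15 of 131) under 50 kb, 12.7% (92 of 724) at 50 to 100 kb and 14% (221 of 1582) at 100 to 250 kb. It was 19.5% (135 of 691, 16.6 to 22.7) at 250 to 500 kb and 21.0% (37 of 176, 15.3 to 27.8) from 500 kb. Among these weakest loops, therefore, the share was higher at 250 to 500 kb than at 100 to 250 kb (12.3 to 15.8) by more than counting error. This did not hold in the middle band, where the lower count was 16 to 23: there the share was 11.7% (8.86 to 15.1) under 50 kb, 7.22% at 50 to 100 kb, 4.76% (3.81 to 5.86) at 100 to 250 kb, 4.81% at 250 to 500 kb and 7.32% (3.4 to 13.4) from 500 kb. At 12 to 15 counts, the share ran the other way from the shortest to the longest class in the other 5 pairs of libraries: from 60.9% to 18.7% for APH with HU, 15.9% to 11.4% for DMSO with APH and 22.5% to 13% for H2O with HU. It went from 17.4% to 9.58% for DMSO with HU and from 34.0% to 23.9% for APH with H2O. Of all the pairs, for APH with HU alone the intervals of the shortest and the longest class did not overlap. For DMSO with H2O they were 6.55 to 18.2 and 15.3 to 27.8, so its end classes differed by no more than counting error. Between the ends the share did not fall at every step: for DMSO with APH it was highest, 21.2%, at 50 to 100 kb.

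Among strong both-vehicle loops the share was instead lower in the longest than in the shortest class, as in every other pair of libraries. With 24 counts or more in both vehicles, the share absent from both drug lists was 5.13% (61 of 1190) under 50 kb, 1.63% (25 of 1531) at 50 to 100 kb and 0.277% (5 of 1804) at 100 to 250 kb. No loop of 250 to 500 kb was among them, 0 of 467 with an upper bound of 0.787%, and none of 70 from 500 kb, with an upper bound of 5.13%. Every vehicle-only loop of 250 kb or more therefore had fewer than 24 counts in at least 1 vehicle. The share in the shortest class was 14.5% for APH with HU, 12.4% for APH with H2O, 8.54% for H2O with HU, 7.26% for DMSO with APH and 4.89% for DMSO with HU, and in the longest class it was 0 in each.

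**Figure D2:**
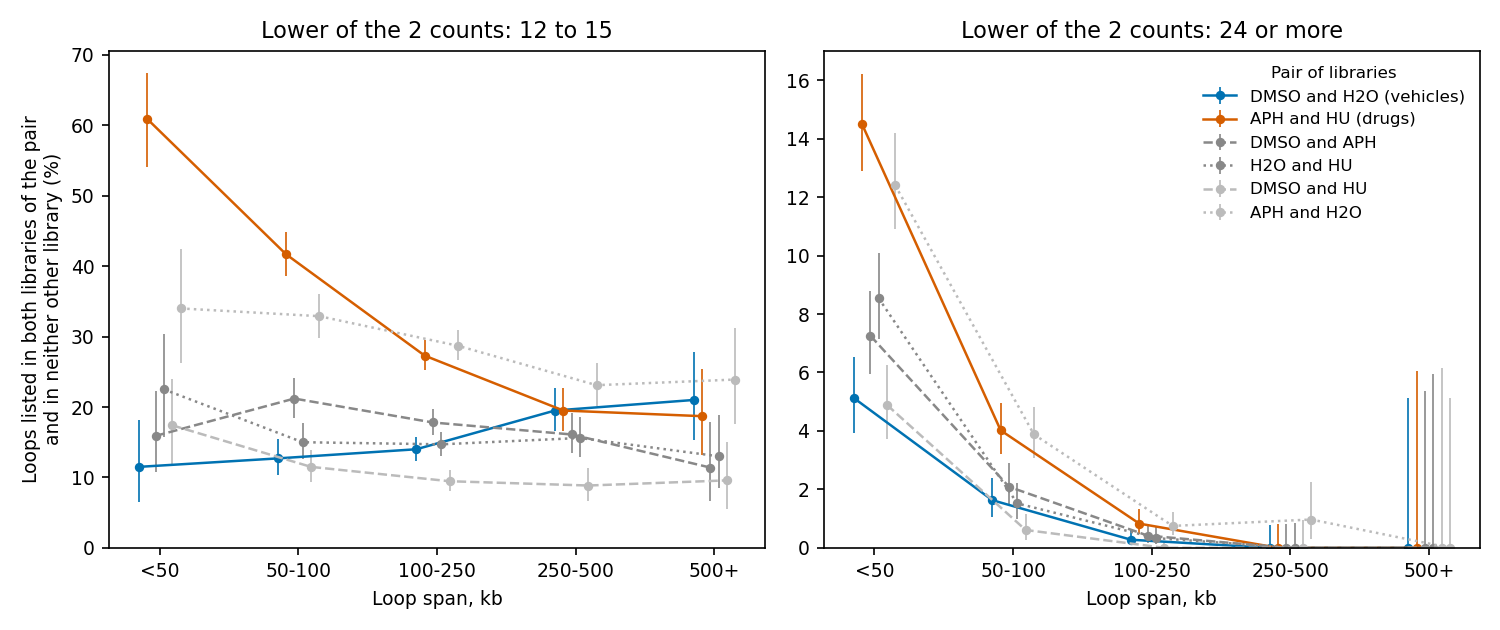
Share of the loops listed in both libraries of a pair that neither other library lists (%), by loop span in kb, with 95% exact binomial intervals; left, pairs whose lower count is 12 to 15, right, 24 or more. On the left the share for DMSO and H2O goes from 11.5% in the shortest class to 21.0% in the longest, and on the right from 5.13% to 0.

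The longest members were few contacts over large distances. A 955 kb loop on chromosome 5, with no gene at either anchor, had 12 counts in both vehicles. HTR2A, which encodes a serotonin receptor, anchored a 940 kb loop on chromosome 13 with 12 counts in DMSO and 14 in H2O. The start of RND3 (chr2:150485001-150490000) anchored an 890 kb loop with 16 and 18 counts, at 10.5 and 12.1 times the expected count, and neither of its anchor bins was used by any loop of a drug list. BTG1, an antiproliferative gene of lymphocytes, anchored a 320 kb loop at its start with 21 and 22 counts. ABCA5, a lipid transporter gene, anchored one of 470 kb with 16 counts in DMSO and 29 in H2O. Within 1 bin of the ABCA5 loop a drug list held another, and none lay within 2 bins of the other loops named in this paragraph.

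The 2 vehicle libraries gave these loops nearly the same counts after scaling by the loops listed in all 4 libraries. The summed counts were 15376 in DMSO and 16733 in H2O, a log2 ratio of H2O to DMSO of 0.0053 (-0.026 to 0.037). By single loops, 1 was higher in H2O beyond its counting interval and 0 were lower, against 1.03% and 1.07% of all loops listed in both vehicles. The 1 was the loop at chr17:75295001-75300000, with 54 and 88 counts. The 3 highest and the 3 lowest members by ratio all had intervals that include 0. Highest was a 200 kb loop at chr5:42905001-42910000 with 12 counts in DMSO and 25 in H2O. Next came one of 430 kb at chr2:47335001-47340000 with 14 and 27, and one of 70 kb at PASK, a nutrient-sensing kinase gene, with 13 and 24. At the other end were a 135 kb loop of NEK6 with 26 and 15, one of 130 kb at chr1:34460001-34465000 with 20 and 12, and one of 335 kb at chr7:44585001-44590000 with 18 and 12. Both requirements of the rule act on these counts, since a loop under 12 in either vehicle could not enter.

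A close relative was often listed under the drugs. For 496 vehicle-only loops (58.4%), a drug list held a loop displaced by at most 1 bin at each anchor, and for a further 51 (6.01%) one displaced by at most 2 bins, 547 in all (64.4%, 61.1 to 67.7). APH held a loop within 1 bin for 461, HU for 402 and both for 367 (43.2%). Of the 302 others, 126 (14.8%) had both anchor bins in use by other loops of a drug list, 133 (15.7%) had 1 anchor bin in use and 43 (5.06%) had none. The same measure within 2 bins was 65.0% for loops of DMSO with APH, 63.4% for H2O with HU and 51.4% for drug-only loops. Most vehicle-only loops were thus a bin or so away from a loop that a drug library listed, as were loops shared by other pairs of libraries. Of the 884 drug-listed loops within 1 bin, 433 (49%) were themselves listed in all 4 libraries. As background, the 9529 loops of all 4 libraries are part of an APH list of 27395 loops and an HU list of 21448. The share was not taken for other pairs of libraries, and nothing is read from it.

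Vehicle-only loops seldom lay together. They formed 807 groups within 2 bins of each other, 767 loops had no such companion, and the largest group had 4. Of their 1621 anchor bins, 71 served 2 or more of them, and 6 served 3, among them bins at CASP10, TMEM154, MYB and RAPGEF1.

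Some anchor bins carried both a vehicle-only and a drug-only loop. This held for 150 vehicle-only loops (17.7%, 15.2 to 20.4). The same share was 22.8% (19.3 to 26.5) for loops of DMSO with HU against those of APH with H2O, and 6.88% in reverse. It was 10.6% for DMSO with APH against H2O with HU, and 11.9% in reverse. For drug-only loops against vehicle-only loops it was 7.18%. Sharing an anchor bin with the opposite class was thus not particular to vehicle-only loops. Vehicle-only and drug-only loops formed 159 pairs reaching to the same side of the shared bin. The drug-only loop was the shorter in 120 pairs (75.5%) and the longer in 39, with a median difference of -60 kb. In the pairing of DMSO with APH against H2O with HU, the second was the shorter in 56.8% of pairs, with a median difference of -5 kb. Pairing DMSO with HU against APH with H2O gave 45.0% and 7.5 kb. A difference in this direction is also what the spans of the 2 classes taken alone give, 135 kb against 75 kb in the median, and its part was not tested.

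Loops listed in all 4 libraries that share an anchor bin with a vehicle-only loop have counts in each library, and 1423 were found. The rule read the same contrasts, so their drug ratios are a description. Pooled, APH to DMSO gave a log2 ratio of -0.064 (-0.080 to -0.047) and HU to H2O -0.084 (-0.10 to -0.066), while H2O to DMSO gave 0.0017 (-0.016 to 0.019), with 10 higher and 19 lower, where the background over all 9529 loops is 1.26% and 1.36%. In APH against DMSO, 24 loops were higher and 64 lower (4.5%) beyond counting error, where the background over all 9529 loops is 2.76% higher and 2.74% lower. In HU against H2O, 31 were higher and 79 lower (5.55%), where the background is 3.92% and 3.45%.

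The pooled ratios depended on span. Under 100 kb they were 0.015 (-0.0088 to 0.040) for APH and 0.0037 (-0.021 to 0.028) for HU, where all loops of that span listed in 4 libraries had 0.077 and 0.076. At 100 to 250 kb they were -0.099 and -0.14, against -0.042 and -0.056. From 250 kb, over 236 loops, they were -0.25 (-0.30 to -0.21) and -0.24 (-0.29 to -0.19), against -0.18 (-0.20 to -0.16) and -0.13 (-0.15 to -0.11). The loops beside vehicle-only loops were lower in each span class than all loops of that class, with 1 library a group and no replicate to set the difference against.

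**Figure D3:**
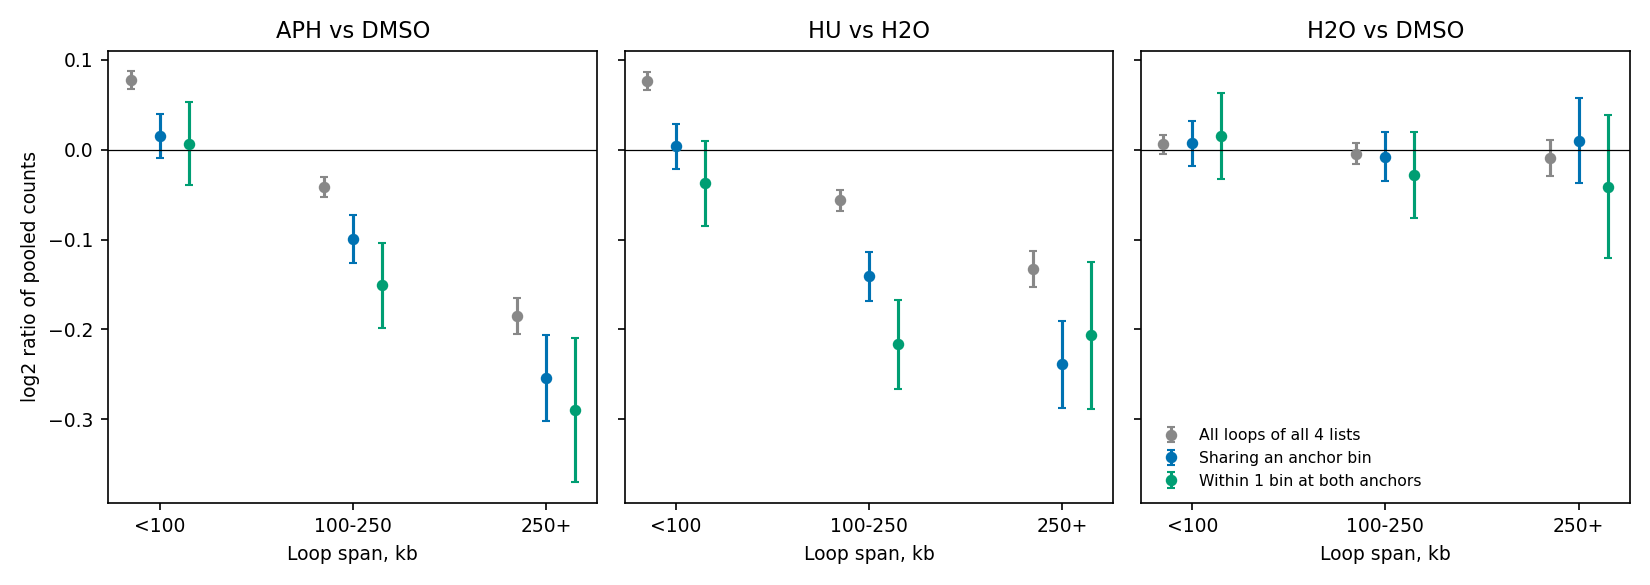
Log2 ratio of pooled counts by loop span in kb for loops listed in all 4 libraries (grey), those sharing an anchor bin with a vehicle-only loop (blue) and those within 1 bin of one at both anchors (green), with 95% counting intervals. In the panels for APH to DMSO and HU to H2O the blue points go from near 0 under 100 kb to -0.25 and -0.24 from 250 kb, and in the panel for H2O to DMSO every interval of the blue points includes 0.

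Genes lay at most vehicle-only loops, as at loops in general. An anchor overlapped the body of a protein-coding gene for 691 (81.4%, 78.6 to 84.0), against 80.7% of loops listed in all 4 libraries, and an anchor with a start site was found for 22.1%, among them 1.77% with a start site in both. Both anchors lay on 1 gene for 161 (19.0%, 16.4 to 21.8), more than the 13.3% (12.6 to 14) of loops in all 4 libraries and near the 20.8% of drug-only loops. Of 5474 genes with a loop listed in both vehicles, 887 (16.2%) had 1 or more vehicle-only loops: 783 had 1, 90 had 2 and 14 had 3 or more.

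MYB, a transcription factor of blood progenitors, held 3 vehicle-only loops among its 5 loops of both vehicles, all at the bin of its start (chr6:135180001-135185000). The first joined it over 180 kb to HBS1L, a ribosome rescue factor gene, with 20 counts in DMSO and 20 in H2O. The second reached HBS1L over 170 kb with 15 and 17 counts, and the third ran 240 kb the other way, past the gene, to AHI1, with 18 and 25. All 3 were unlisted in APH and HU, and no drug list held a loop within 2 bins of any of them. The DMSO list held 9 loops at MYB, H2O 10, APH 2 and HU 3. The 2 loops in all 4 libraries reached 35 and 40 kb upstream, and the first had 82 counts in DMSO and 98 in H2O, and 100 in APH and 77 in HU. The second had 30 and 24 in the vehicles and 30 and 33 under the drugs, so that these near contacts differed by no more than counting error, with pooled log2 ratios of -0.11 (-0.49 to 0.26) for APH to DMSO and -0.13 (-0.52 to 0.25) for HU to H2O. Listing also varied between the vehicles: loops of 65 and 70 kb had 28 and 26 counts in DMSO and were unlisted in H2O, and one of 95 kb had 30 in H2O and was unlisted in DMSO. HBS1L itself had no other loop in both vehicles, and neither drug list held any loop at it.

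RAPGEF1 had the most vehicle-only loops, 4 of its 11 loops of both vehicles, and all joined its start region to its own body over 100 to 145 kb. Their counts in DMSO and H2O were 13 and 12, 14 and 14, 17 and 16, and 16 and 14. None exceeded 17 counts, and each had a drug-listed loop within 2 bins, as the crowded map of the gene shows. The vehicle lists held 20 and 19 loops there, APH 16 and HU 11. Its 2 loops in all 4 libraries summed to 73 and 77 counts in DMSO and H2O, and to 76 in APH and 51 in HU.

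MLLT3, a subunit of the super elongation complex, showed 3 vehicle-only loops that use 4 anchor bins. Its far end and the bin just upstream of its start bin were joined over 270 kb with 14 counts in DMSO and 12 in H2O. The start was joined over 490 kb to an upstream point with 13 and 12 counts, and the far end to the same point over 755 kb with 13 and 12. These stood at or just over the lowest listed count. A 265 kb loop beside the first was in all 4 libraries, with 48 counts in DMSO and 44 in H2O, and 60 in APH and 44 in HU.

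**Figure D4:**
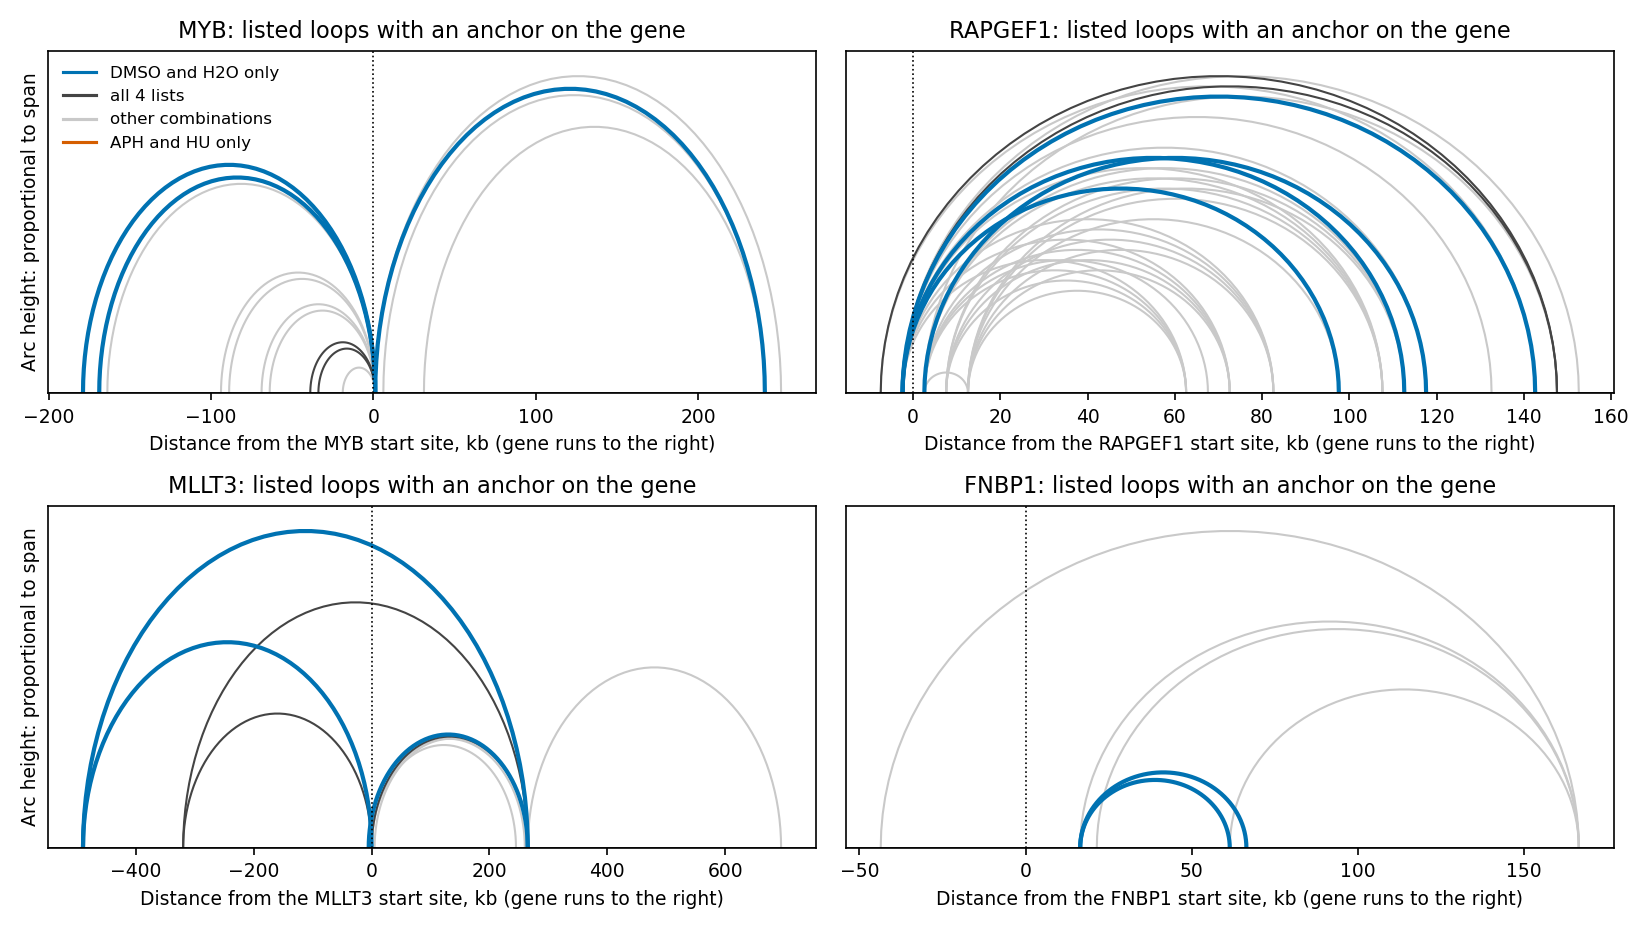
Listed loops with an anchor on MYB, RAPGEF1, MLLT3 and FNBP1, drawn as arcs by distance from the start site in kb, with arc height proportional to span and the gene running to the right; blue, vehicle-only; dark grey, all 4 lists; light grey, other combinations. At MYB the 3 blue arcs span 170 to 240 kb and the dark arcs 35 and 40 kb.

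COMMD1, which acts in copper handling and NF-kB control, had vehicle-only loops of 495 kb with 15 counts in DMSO and 19 in H2O, and of 490 kb with 15 and 13. Another of 200 kb joined it to the start of B3GNT2, a glycosyltransferase gene, with 18 and 15 counts. COMMD1 resembled MYB, SNX29 and TRIO in that no drug-listed loop lay within 2 bins of the 3. At COMMD1 the vehicle lists held 5 and 7 loops and the drug lists 2 each. Its 2 loops in all 4 libraries had 57 counts in H2O and 32 in HU, a log2 ratio of -0.82 (-1.49 to -0.17).

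Short loops made up the group at CASP10, an initiator caspase gene. From 1 bin (chr2:201190001-201195000) they reached 15 kb with 21 counts in DMSO and 28 in H2O, 30 kb with 17 and 20, and 35 kb with 13 and 19. Each had a drug-listed loop within 1 bin, and the loops of this gene in all 4 libraries gave 0.13 (-0.16 to 0.42) for APH to DMSO and 0.12 (-0.17 to 0.41) for HU to H2O. TMEM154 likewise used 1 bin for 3 loops, toward FBXW7, a ubiquitin ligase subunit gene: 140 kb with 15 and 13 counts, 100 kb to the FBXW7 start with 18 and 20, and 80 kb with 16 and 21.

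SNX29, a sorting nexin gene, held the strongest loop of these groups, 35 kb with 61 counts in both vehicles, at 2.48 and 2.16 times the expected count. Its others included a 100 kb loop from a bin over TNFRSF17, the B cell maturation antigen gene, with 14 counts in DMSO and 22 in H2O. At PICALM, a clathrin assembly gene, a 245 kb loop to EED, a Polycomb subunit gene, had 18 and 13 counts. The remaining genes with 3 were EHMT1, a histone methyltransferase gene, TRIO, ARHGAP18, NEK6, CHST11 and HERC1, with counts of 12 to 34 in DMSO and 13 to 39 in H2O. TRIO and CHST11 had no loop in all 4 libraries. At TRIO, 5 loops were listed in DMSO, 13 in H2O, 8 in APH and 6 in HU.

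**Figure D5:**
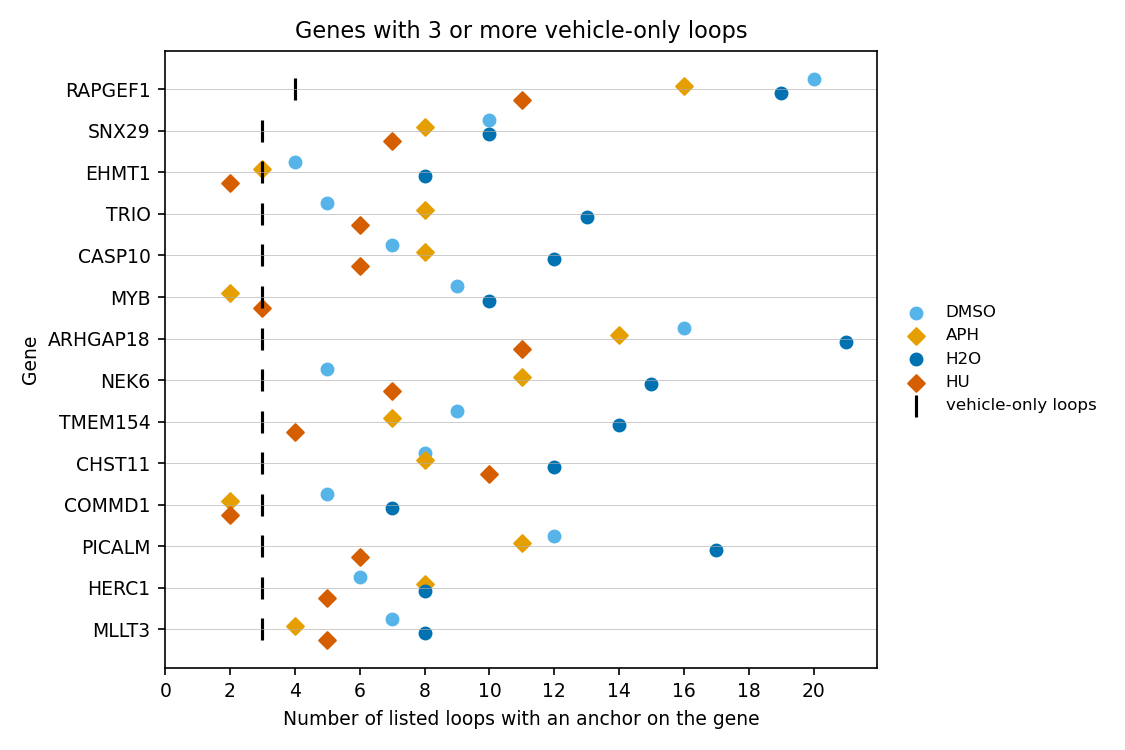
Number of listed loops with an anchor on each of the 14 genes that hold 3 or more vehicle-only loops (black bars), in DMSO, APH, H2O and HU. MYB goes from 9 and 10 loops in the vehicles to 2 and 3 in APH and HU, while NEK6 has 5 in DMSO and 11 in APH; the choice of genes adds 3 or 4 loops to both vehicle lists.

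These 14 genes were chosen by having vehicle-only loops, so their longer vehicle lists are in part given by the rule. At 4 of them the counting interval of the pooled ratio over loops in all 4 libraries excluded 0 in HU to H2O: RAPGEF1 at -0.58 (-1.12 to -0.049), SNX29 at -0.50 (-0.88 to -0.12), ARHGAP18 at -0.39 (-0.64 to -0.14) and COMMD1. In APH to DMSO this held for SNX29 at -0.44 (-0.79 to -0.079) and ARHGAP18 at -0.28 (-0.54 to -0.026). Over the 4831 genes with a loop in all 4 libraries, the background is 5.09% lower in HU to H2O and 3.71% in APH to DMSO, and nothing is read from the count here, since the rule used these contrasts. For the other genes with such loops, the intervals included 0 in both contrasts.

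For 168 of the 5474 genes with a loop of both vehicles, every such loop was vehicle-only, in most a single loop. Over all both-vehicle loops 6.81% were vehicle-only, and a gene with a single such loop enters by that loop alone. Nothing is read from the number. The 7 with 2 were ACTN4, DIDO1, DMTF1, FNBP1, FOXN3, HBS1L and PASK. Drug lists did hold other loops at ACTN4 (3 in APH and 2 in HU), DMTF1 (1 and 3), FOXN3 (3 and 5) and PASK (2 and 1). FNBP1, which shapes membranes in endocytosis, had a 45 kb loop with 57 counts in DMSO and 72 in H2O and a 50 kb loop with 41 and 42, both inside the gene. Neither drug list held any loop at FNBP1, although H2O listed 4 more that DMSO did not. Both loops at DIDO1 were weaker, with 15 and 15 counts over 20 kb and 16 and 16 over 35 kb, and there too the drug lists held none. GPR160 had a 15 kb loop of 46 and 56 counts, PREX1, a Rac activator, one of 45 kb with 39 and 48, and INPP4A one of 25 kb with 42 and 40. No anchor bin of these 3 loops was in a drug list, and they lay under 3 times the expected count.

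Gene lists were set against the 16.2% of genes. They were chosen with earlier results of these data known, so a high share may come from the choice and is given as a description. Among haematopoietic transcription factor genes, 6 of 13 with a loop of both vehicles (46.2%) had a vehicle-only loop, and 12 of their 59 loops were of this kind. Besides MYB and MLLT3 these were RUNX3, with 23 counts in DMSO and 24 in H2O over 70 kb and 18 and 17 over 80 kb, and ETV6, with 32 and 32 over 75 kb and 20 and 23 over 175 kb. CBFB, the partner of RUNX proteins, had 15 and 17 counts over 125 kb. MEF2C had 16 and 17 over 415 kb, its only loop of both vehicles. A drug list held a loop within 1 bin of each of those at RUNX3, ETV6 and MEF2C, and none within 2 bins at CBFB.

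B cell identity genes gave 4 of 12 (33.3%), with 4 of 50 loops. EBF1, a founding B lineage factor, had a 415 kb loop with 18 counts in DMSO and 22 in H2O, and IKZF3 a 95 kb loop with 22 and 28. SYK and BLK, kinases of B cell receptor signalling, had loops of 10 kb with 27 and 41 counts and 65 kb with 37 and 45. By loops this share is close to the 6.81% of all both-vehicle loops. A drug list held a loop within 1 bin of those at EBF1, IKZF3 and BLK, and within 2 bins of that at SYK.

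Genes of common fragile sites, which break under partial inhibition of replication such as by aphidicolin, gave 5 of 13 (38.5%), with 6 of 40 loops. The longest was at RAD51B, 875 kb with 12 counts in DMSO and 14 in H2O. IMMP2L had 15 and 14 counts over 395 kb, its only loop of both vehicles and one whose anchor bins no drug list used. AUTS2 had 28 and 40 counts over 15 kb and 20 and 27 over 50 kb, and DMD 12 and 13 over 75 kb. A drug list held a loop within 1 bin of the 50 kb loop at AUTS2 and of the DMD loop. Genes of this list also had 7 drug-only loops, spread over 3 of them.

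Other lists had few members. DNA replication and checkpoint genes gave 2 of 17 (11.8%): CDT1, an origin licensing factor, with 36 and 37 counts over 20 kb, and ATRIP, the partner of the ATR kinase, with 16 and 18 over 90 kb. Cohesin and CTCF genes gave 1 of 9, CDCA5 (sororin, which protects cohesion), with 14 and 16 counts over 70 kb. Apoptosis genes gave 2 of 9, CASP10 and BAK1, which had 20 and 16 counts over 65 kb. The list of NF-kB and latency responsive genes gave 1 of 10, CCR7, a lymphocyte homing receptor, with 25 and 27 over 120 kb. T cell genes gave 1 of 3 and myeloid and erythroid genes 0 of 2. A drug list held a loop within 1 bin of those at CDCA5 and CASP10, and within 2 bins of that at ATRIP. None lay within 2 bins at CDT1, BAK1 or CCR7. With lists this small, a single gene moves the share widely.

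By chromosome, vehicle-only loops were 3.85% of both-vehicle loops on chromosome 19 (25 of 649, 2.51 to 5.63) and 10.5% on chromosome 13 (23 of 219, 6.77 to 15.3), the lowest and highest shares. The most in 1 window of 1000 kb was 6 of 27 both-vehicle loops, at chr1:234000001-235000000, with spans of 75 to 590 kb. There IRF2BP2, a transcriptional corepressor gene, anchored loops at its start of 110 kb, with 18 counts in DMSO and 15 in H2O, and of 155 kb, with 15 and 19. From the same bin, loops of 115 and 160 kb were listed in all 4 libraries, 1 bin away from these. A window at chr10:96000001-97000000 held 4 of 18, among them loops at BLNK, an adaptor of B cell receptor signalling, of 115 kb with 21 and 27 counts and of 45 kb with 20 and 22.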

How the data were processed

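SMC1 HiChIP libraries of 4 cultures were used, 1 per group, grouped by the labels. Per the submitters' processing notes, bcl2fastq 2.17 and MACS3 3.0.1 were used and the build was hg38. Which aligner and loop caller made the lists is not given in the sources used here. As deposited by the authors, each library has 1 loop table without a header, whose columns were read from their values. The authors' deposited values are whole contact counts (12 or more for each pair of bins of 5 kb), a fractional column taken as the signal expected by the caller's background, and a column taken as the adjusted p-value. Deposited cluster types were read as given, and the deposited cluster score was not interpreted.

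Loops were matched by chromosome and both bin starts. For ratios, counts were divided by the library's sum over the 9529 loops listed in all 4 libraries (300320 and 325634 in DMSO and H2O, 376948 and 322048 in APH and HU). Intervals are 95% exact: conditional binomial for ratios of 2 counts, Clopper-Pearson for shares. PCR copies cannot be told from separate molecules, so these may be too narrow. No p-value was computed, because each group has 1 library. Python 3.11.15, numpy 2.4.6, pandas 2.3.3, scipy 1.17.1 and matplotlib 3.10.9 were used, and the steps were tested on simulated data.

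Genes and promoters came from RefSeq tables of GRCh38.p14, and a loop counted for each of 19974 protein-coding genes that an anchor overlapped. All 171 genes of the 9 lists were found. The values of 1 list gene are not reported here. Named were genes with 3 or more vehicle-only loops, the 10 loops with most counts, the 3 longest and shortest, the 3 highest and lowest in H2O to DMSO, and list genes with a vehicle-only loop. Loops with the most counts at 250 kb or more or with no anchor in a drug list, genes whose both-vehicle loops were all vehicle-only, and the windows were added after values were seen. The members and lists were chosen with earlier results of these data known. Alternatives covered bin tolerance, count minimum, list length, scaling, expected counts, reference vehicle, span and gene assignment.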

Additional observations from a re-analysis of the deposited data

How the results depend on the processing

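Directions of the pooled ratios over shared loops held under every alternative run, while sizes and counts moved. Vehicle-only loops numbered 849 as deposited, 353 and 302 when a drug-listed loop within 1 or 2 bins counted as present, and 178 with at least 20 counts in each vehicle. Their median span of 135 kb became 160, 178 and 45 kb under the same 3 settings. The 38.8% under 100 kb became 32.1% with 2 bins, 83.7% with 20 counts and 35.1% with lists cut to equal length, so the long spans hold for loops of few counts and not with 20 or more. A drug-listed loop lay within 2 bins for 64.4%, for 57.9% with 20 counts, and within 1 bin for 58.4%. An anchor bin was shared with a drug-only loop for 17.7%, for 12.9% with 20 counts and for 12.4% with equal-length lists, which gave 1187 vehicle-only loops.

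H2O to DMSO over vehicle-only loops was 0.0053, 0.059 with 20 counts, 0.063 with equal-length lists and -0.23 when scaled by all listed loops. At shared anchors, APH to DMSO was -0.064, -0.037 after division by expected counts and -0.44 when scaled by all listed loops. HU to H2O was -0.084, -0.11 with 20 counts, -0.046 after division by expected counts and -0.036 when scaled by all listed loops. An anchor on a gene was found for 81.4%, for 76.4% with 20 counts, 54.9% by gene ends and 22.1% by start sites. Genes with 3 or more numbered 14, 3 by gene ends and 2 by start sites; both start site settings were chosen after seeing the data.

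No paired analysis was possible because each group has 1 library, and no library could be left out. Depth limits what a list can hold: equal-length lists began at 12 counts in DMSO, 14 in H2O and HU, and 17 in APH, so that weak loops left some of them by count alone. Counts of unlisted pairs were not analysed here.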
